A study of Mus musculus with 28 samples.

Results

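The expression of 10 genes of renal water and urea transport, out of 45706 genes listed, was followed in mIMCD-3 cells: the vasopressin receptor genes Avpr2 and Avpr1a, the aquaporin genes Aqp1, Aqp2, Aqp3, Aqp4, Aqp5 and Aqp11, and the urea transporter genes Slc14a1 and Slc14a2. They were found by gene symbol through their Ensembl identifiers, and all 10 were present in both expression tables. These epithelial cells are an established mouse line derived from collecting duct of the inner medulla. RNA was sequenced from 28 libraries, 4 each of unedited polyclonal WT cells, of the monoclonal WT5, which descends from 1 sorted cell of the polyclonal line, and of subclones 1 to 5, each started from 1 sorted WT5 cell. All libraries came from cells harvested 4 days after full confluency in medium with serum and antibiotics, and the culture protocol names no vasopressin. Each line other than the polyclonal cells is 1 clone, so a difference between lines describes these clones. The 4 libraries per line are named biological replicates in the methods but technical ones in a figure legend, so the p-values below measure only the spread between these libraries, which may be technical. Fewer cells with a transcript and less of it per cell cannot be told apart in such bulk libraries.

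In the collecting duct, vasopressin binds the V2 receptor on the basolateral membrane of principal cells, and the receptor acts through the stimulatory G protein, adenylyl cyclase, cAMP and protein kinase A. Aquaporin 2 then moves to the apical membrane and its gene is transcribed more, while water leaves the cell through aquaporins 3 and 4 on the basolateral side. In the inner medulla, vasopressin also raises urea permeability through the urea transporters of the UT-A group, which are encoded by Slc14a2.

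The values are TPM, a transcript abundance that is scaled for transcript length and to the same total in every library, and the read depth cannot be taken from it. Values are written to 2 decimals, and 0.01 was the lowest value above 0. In the polyclonal libraries 18681 to 19272 genes were above 0, in WT5 16318 to 16536 and in the subclones 16270 to 17004, and log2(TPM) of replicate libraries correlated with r between 0.983 and 0.990 across genes above 0 in the group. WT5 and the subclones are in separate tables with no normalization between them, which touches each level set across them below. Polyclonal cells were sequenced as shorter single-end reads and WT5 as longer paired-end reads at another time, so that read layout and cell line cannot be told apart in any comparison with polyclonal cells. Among 13 markers of the principal cell, Aqp2 was listed at 0 in every library, Aqp4, Fxyd4, Elf5 and Scnn1b had group means of at most 0.0925 TPM, and Krt8, Krt18, Tfcp2l1, Hsd11b2 and Scnn1g had group means of at least 2 TPM. Of the defining markers of the labelled cell type, aquaporin 2 was thus absent from the values.

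One promoter is shown because its gene is the hormone-controlled target that was not detected. The Aqp2 sequence lies upstream of the RefSeq start (99579056) on the + strand of GRCm38.p6 at chr15:99578806-99579054, and no annotated transcript covers it. The base next to the RefSeq start is left out, since the GENCODE transcript begins there. Capitals mark the core of the cAMP response element (TGACG or its reverse complement CGTCA). They also mark a form of the core bound by GATA factors (GATAA or its reverse complement TTATC). Other forms of these cores were neither searched nor marked.
Aqp2: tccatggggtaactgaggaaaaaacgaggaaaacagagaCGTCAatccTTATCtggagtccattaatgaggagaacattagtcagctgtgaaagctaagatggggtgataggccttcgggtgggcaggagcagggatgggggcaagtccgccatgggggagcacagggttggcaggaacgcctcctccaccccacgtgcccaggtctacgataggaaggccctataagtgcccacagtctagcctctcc
The cAMP response core starts at position -211 and the GATA core at -202 relative to the RefSeq start. Of 32851 mouse promoter windows of the same length, 17.7% held the cAMP response core and 22.5% the GATA core on either strand. The windows of 7 members were searched, of which 2 (Avpr1a and Aqp2) held the cAMP response core and 2 (Avpr2 and Aqp2) the GATA core. A match describes letters and is not evidence of binding.

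The V2 receptor gene was expressed in polyclonal cells and nearly absent from WT5 and all its subclones. Avpr2 (ENSMUSG00000031390, chromosome X, 73892102 to 73895502, + strand, GRCm38) encodes the V2 receptor. Its level was 10.8, 10.79, 10.97 and 9.7 TPM in the polyclonal libraries and 0.17, 0.02, 0.01 and 0.04 TPM in WT5. The groups do not overlap, and every WT5 library is close to the lowest value that the tables can hold. The mean was 10.6 ± 0.583 TPM (SD, n = 4) in polyclonal cells and 0.06 ± 0.0744 TPM in WT5, a ratio of 176. The ratio rests on WT5 replicate 1, without which the WT5 mean was 0.0233 TPM and the ratio 453, while it was 138 to 158 without any other WT5 library. For the test, log2(TPM) was z-score transformed within each library, so that a z-score difference of 1 corresponds to 8.56-fold, and a gene was called at an adjusted p below 0.01 with a z-score difference above 1 in size. Avpr2 fell by 2.76 (standard error 0.263, adjusted p = 3.60e-05 by limma with Benjamini-Hochberg adjustment over 13723 genes). In this comparison 745 genes (5.43%) were called, and 3 members could be tested because they were above 0 in all 8 libraries, of which Avpr2 was the 1 called.

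Low Avpr2 was shared by all subclones. Subclone 1 had 0, 0.2, 0.16 and 0.12 TPM, subclone 2 had 0.06, 0, 0 and 0.06 TPM, and subclone 3 had 0.14, 0.29, 0.06 and 0.14 TPM. Subclone 4 had 0.15, 0.4, 0.06 and 0.19 TPM and subclone 5 had 0.06, 0.07, 0.01 and 0.06 TPM. The highest of these 20 libraries, at 0.4 TPM, is far below the lowest polyclonal library at 9.7 TPM, and each subclone overlaps WT5. On log2(TPM + 0.1) the differences of the subclones from WT5 were between -0.24 in subclone 2 (95% confidence interval -1.05 to 0.57) and 0.88 in subclone 4 (-0.14 to 1.91), so smaller differences among these low values were not detectable. Exact permutation tests of subclone against WT5 gave two-sided p between 0.114 and 0.943 for Avpr2, where 4 libraries against 4 can reach 0.0286 at the smallest. Avpr2 overlaps the opposite-strand gene Arhgap4 within exons, and the counting is not stated to use strand, so reads of both genes cannot be told apart. Arhgap4 had at most 1.48 TPM in any library, in subclone 3, and L1cam, which overlaps Avpr2 outside its exons, had at most 41.2 TPM.

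Avpr1a (ENSMUSG00000020123, chromosome 10, 122448499 to 122453452) encodes the V1a receptor, which couples to phospholipase C through Gq. It was listed at 0 in all 4 polyclonal libraries and at 0.06, 0.02, 0.08 and 0.09 TPM in WT5, with p = 0.0286 by the exact permutation test (two-sided), the smallest it can give, and 0.162 after adjustment over 34 such tests of members. In the subclones its mean ran from 0.025 TPM (subclone 2) up to 0.1 TPM (subclone 4). Avpr1a was not called among the subclones (limma F test on z-scores of log2(TPM + 0.1), adjusted p = 0.0151). Of the 10 pairs of subclones, subclone 4 above subclone 2 alone passed on this scale, by 0.16 (95% confidence interval 0.0879 to 0.231, limma adjusted p = 0.00474 over all genes and pairs), and the libraries of both clones do not overlap. Pairs were planned only for members called by the F test, so nothing is read from this pair. All values of Avpr1a were at or below 0.13 TPM, so the gene was at the edge of detection throughout.

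**Figure D1:**
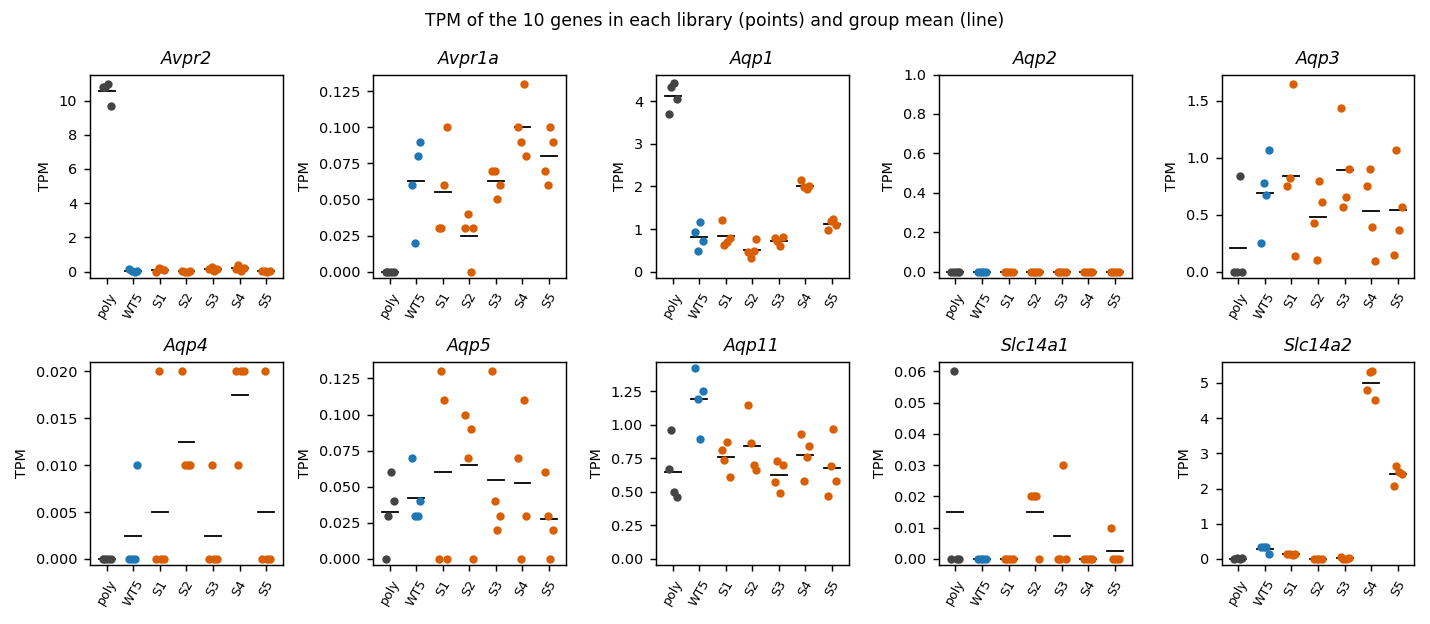
TPM (linear axis, own scale per panel) of the 10 genes in polyclonal cells (poly), WT5 and subclones 1 to 5 (S1 to S5), with 1 point per library and a line at the group mean. Avpr2 is near 10.6 TPM only in polyclonal cells, Aqp2 is listed at 0 throughout, and Slc14a2 stands at 4.99 TPM in subclone 4 and 2.4 TPM in subclone 5.

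No aquaporin gene had a group mean above 4.12 TPM, and Aqp1 was the 1 aquaporin gene called among the subclones. Aqp1 (ENSMUSG00000004655, chromosome 6, 55336432 to 55348555, + strand) encodes the constitutive water channel of the proximal tubule, the thin descending limb and the vasa recta. It had 3.69, 4.33, 4.42 and 4.05 TPM in polyclonal cells and 0.94, 0.49, 1.16 and 0.71 TPM in WT5. All WT5 libraries are below all polyclonal libraries, with means of 4.12 ± 0.329 and 0.825 ± 0.289 TPM, a ratio of 5. The z-score difference was -0.85 (standard error 0.083, limma adjusted p = 4.10e-05), which is under the size needed for a call. Without z-scores the log2 difference was -2.39 and passed a size of 1 (limma adjusted p = 5.25e-05), in a scale on which the median gene was 0.24 higher in WT5.

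Among the subclones, Aqp1 differed between clones. Subclone 4 had 2.14, 1.98, 1.93 and 2.01 TPM and subclone 5 had 0.98, 1.2, 1.24 and 1.1 TPM. Subclone 1 had 1.22, 0.62, 0.69 and 0.79 TPM, subclone 2 had 0.47, 0.33, 0.48 and 0.76 TPM, and subclone 3 had 0.79, 0.72, 0.6 and 0.81 TPM. Subclone 4 is above every library of WT5 and of the other subclones, and below every polyclonal library. The F test of limma over the 20 subclone libraries gave an adjusted p of 1.05e-05 and a range of 0.66 between z-score means, and Aqp1 was the 1 called of 3 members tested, where 24.6% of 14031 genes were called. Of the 10 pairs of subclones, 4 passed, namely subclone 4 above subclones 1, 2 and 3 and subclone 5 above subclone 2 (limma adjusted p between 3.23e-06 and 4.63e-04 over all genes and pairs). From the highest mean to the lowest, the order was polyclonal, subclone 4, subclone 5, subclone 1, WT5, subclone 3 and subclone 2, and from subclone 5 on each neighbour overlaps the next.

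Aqp2 (ENSMUSG00000023013, chromosome 15, 99579055 to 99584547, + strand), the vasopressin-regulated apical channel, was listed at 0 in all 28 libraries. A value of 0 does not exclude a few reads, since the depth is unknown, and none of the 10 housekeeping genes examined was at 0 in any library. Aqp3 (ENSMUSG00000028435, chromosome 4, 41092722 to 41098183, - strand) encodes a basolateral channel that also carries glycerol. Its values were 0, 0, 0.84 and 0 TPM in polyclonal cells and 0.25, 0.78, 0.67 and 1.07 TPM in WT5, so that 1 polyclonal library lies inside the range of WT5. The exact permutation test gave a two-sided p of 0.114. On log2(TPM + 0.1) the mean of Aqp3 was 2.05 higher in WT5 (limma adjusted p = 0.0629), and without this polyclonal library, replicate 3, it was 2.86 higher (limma adjusted p = 0.00134). In the subclones Aqp3 ranged from 0.09 to 1.65 TPM, with 0.14 to 1.65 TPM within subclone 1 alone, and it was not called among the subclones (limma F test, adjusted p = 0.697).

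Aqp11 (ENSMUSG00000042797, chromosome 7, 97724006 to 97738289, - strand) encodes an intracellular aquaporin of the endoplasmic reticulum. WT5 had 1.42, 1.19, 0.89 and 1.25 TPM and polyclonal cells 0.67, 0.96, 0.5 and 0.46 TPM, with overlapping groups and a z-score difference of 0.21 (limma adjusted p = 0.0585). The mean was 1.19 ± 0.221 TPM in WT5 and lower in every subclone, from 0.623 ± 0.112 TPM (subclone 3) to 0.843 ± 0.222 TPM (subclone 2). The z-score differences were between -0.35 and -0.19, with limma adjusted p between 0.00877 (subclone 3) and 0.0626 (subclone 2), and no subclone reached the size needed for a call. The 5 comparisons share the WT5 libraries, so they are not separate evidence that Aqp11 was lower. Among the subclones themselves, Aqp11 was not called (limma F test, adjusted p = 0.469). Aqp4, another basolateral channel, had at most 0.02 TPM and was above 0 in 12 of 28 libraries, and Aqp5, a channel of glands and lung, had at most 0.13 TPM. Of the 6 other aquaporin genes examined, Aqp8, Aqp9 and Aqp12 were listed at 0 in every group, and the highest group mean of the rest was 0.37 TPM for Aqp7 in subclone 5.

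Of the urea transporter genes, Slc14a2 differed widely among the subclones and Slc14a1 was close to 0 in all lines. Slc14a2 (ENSMUSG00000024552, chromosome 18, 78146148 to 78596942, - strand) encodes the UT-A transporters, and its neighbour Slc14a1 (ENSMUSG00000059336, chromosome 18, 78100091 to 78142119), 4029 bases away, encodes UT-B. Slc14a2 had 0, 0.02, 0 and 0.02 TPM in polyclonal cells and 0.34, 0.35, 0.35 and 0.13 TPM in WT5. Subclone 4 had 4.81, 5.32, 5.33 and 4.5 TPM and subclone 5 had 2.06, 2.65, 2.48 and 2.41 TPM. These clones lie above every other library of the study and do not overlap each other. Subclone 1 had 0.13, 0.15, 0.12 and 0.15 TPM, subclone 2 had 0.01, 0, 0 and 0 TPM, and subclone 3 had 0.05, 0.01, 0 and 0.03 TPM. Subclones 2 and 3 are below every library of WT5, from which they were sorted, and subclone 1 overlaps WT5. From the highest to the lowest, subclone 4 had a mean of 4.99 ± 0.407 TPM, subclone 5 of 2.4 ± 0.248, WT5 of 0.292 ± 0.108, subclone 1 of 0.138 ± 0.015, subclone 3 of 0.0225 ± 0.0222, polyclonal cells of 0.01 ± 0.0115 and subclone 2 of 0.0025 ± 0.005 (SD, n = 4 each). In this order WT5 and subclone 1 overlap, as do subclone 3, polyclonal cells and subclone 2. Relative to WT5, the mean was 17.1 times as high in subclone 4 and 8.21 times as high in subclone 5. The opposite-strand gene Gm6133, which overlaps Slc14a2 outside its exons, had at most 0.19 TPM in any library and was listed at 0 in the mean of WT5 and of every subclone.

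A TPM of 0 in some library kept Slc14a2 out of the z-score fits, so it was tested in fits over all genes above 0 in any library, on log2(TPM + 0.1), a scale that understates changes of low genes. Among the 5 subclones the limma F test, on z-scores of this scale and with calls at an adjusted p below 0.01, gave an adjusted p of 9.99e-18, and 2 of 9 members tested were called, Aqp1 and Slc14a2, where 14.5% of 21640 genes were called. Of the 10 pairs, 9 passed (limma adjusted p at most 5.46e-07) and subclones 2 and 3 did not differ past the threshold (z-score difference 0.0517, 95% confidence interval 0.00523 to 0.0981, limma adjusted p = 0.191).

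Against WT5, calls on log2(TPM + 0.1) without z-scores needed an adjusted p below 0.01 and a log2 difference above 1 in size. Slc14a2 was higher by 3.75 (standard error 0.236) in subclone 4 and by 2.72 (0.24) in subclone 5, and lower in subclone 2 at -1.89 (0.232) and subclone 3 at -1.65 (0.26), with limma adjusted p of 7.28e-05, 8.60e-04, 0.00255 and 0.00645. As z-scores of the same values, the differences in subclones 2, 3, 4 and 5 were -0.48, -0.43, 0.94 and 0.69, under the size of 1 that a call on that scale needs, so all 4 calls depend on the scale. In subclone 1 the log2 difference was -0.67 (limma adjusted p = 0.0856). The calls in subclones 4 and 5 held without any 1 library. The call in subclone 2 was lost without WT5 replicate 1 or 2 or subclone 2 replicate 3 or 4 (adjusted p 0.0101 to 0.0105), and that in subclone 3 without any of 7 libraries, WT5 replicate 4 being the exception (0.0138 to 0.0238). By the exact permutation test all 4 clones had p = 0.0286, the smallest it can give, and 0.162 after adjustment.

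In these fits, which all share the WT5 libraries, subclone 1 had 0 members called, subclones 2, 3 and 5 had 1 each and subclone 4 had 2, where for subclones 1 to 5 in turn 1.71%, 1.54%, 2.01%, 2.97% and 1.79% of 21939 genes were called. The second member in subclone 4 was Aqp1, with a log2 difference of 1.25 (standard error 0.228, limma adjusted p = 0.0061), and this call was lost without any 1 library other than WT5 replicate 2 or 3 (adjusted p 0.0131 to 0.0214). On z-scores without a pseudocount Aqp1 was 0.41 higher in subclone 4 (standard error 0.0821, limma adjusted p = 0.00415), under the size for a call. By this z-score rule, 3 members (Aqp1, Aqp3 and Aqp11) could be tested in each subclone and 0 were called, where 0.152%, 0.144%, 0.173%, 0.202% and 0.173% of 13860 genes were called in subclones 1 to 5. At an unadjusted p below 0.05, limma had 1 of these members in subclones 1, 3 and 5 (Aqp11) and 2 in subclones 2 and 4 (Aqp1 and Aqp11), where 51%, 51.5%, 46.2%, 59% and 49.1% of all genes tested passed in subclones 1 to 5. The unequal-variance test also called 0. Between WT5 and polyclonal cells, 3 of 9 members were called on log2(TPM + 0.1), namely Avpr2, Aqp1 and Slc14a2, where 24.5% of 23738 genes were called. Slc14a2 was 1.79 (standard error 0.231, limma adjusted p = 2.92e-04) higher in WT5, and as a z-score the difference was 0.58, under the size for a call.

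**Figure D2:**
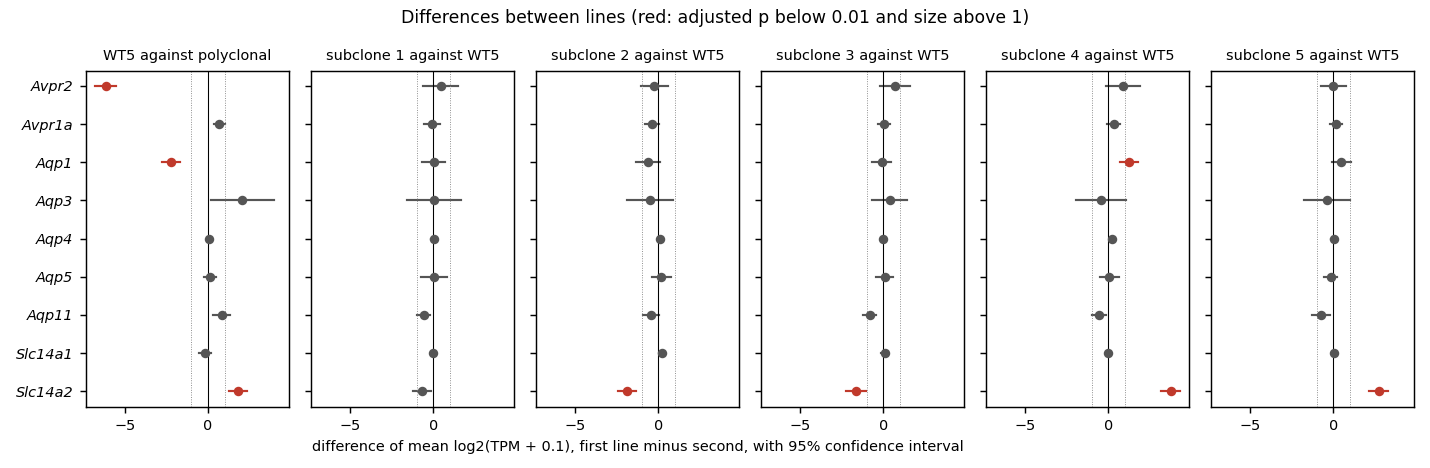
Difference of mean log2(TPM + 0.1) between lines with its 95% confidence interval from limma, for the 9 genes above 0 in any library; red marks an adjusted p below 0.01 with a difference above 1 in size. Slc14a2 lies at -1.89 and -1.65 in subclones 2 and 3 and at 3.75 and 2.72 in subclones 4 and 5, and Avpr2 at -6.16 in WT5 against polyclonal cells.

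Slc14a1 had at most 0.06 TPM, was above 0 in 6 of 28 libraries, and was listed at 0 in all libraries of WT5 and of subclones 1 and 4. It was not called among the subclones (limma F test on z-scores of log2(TPM + 0.1), adjusted p = 0.282). Both Aqp1 and Slc14a2 were highest in subclone 4 and next highest in subclone 5 among the subclones, while Avpr2 was at most 0.4 TPM in these clones.

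Genes with the closest patterns were sought by the correlation of log2(TPM + 0.1), among those with a mean of at least 1 TPM over the libraries used. The 3 highest are named, out of 12441 genes for Avpr2 and 12142 for Aqp1 and Slc14a2. Aqp1 and Slc14a2 were searched because their means over the 20 subclone libraries were at least 1 TPM (1.04 and 1.51 TPM). They reached this through subclones 4 and 5, since in subclones 1 to 3 their means were at most 0.83 and 0.138 TPM. Over all 28 libraries, Avpr2 was closest to Epha7 (r = 0.970), an ephrin receptor gene with 6.85 TPM in polyclonal cells and at most 0.0975 TPM in the mean of any other line, to Hibadh (r = 0.969) and to Gm10232 (r = 0.967). These values are set by the gap between polyclonal cells and the other lines, and polyclonal cells were sequenced with another read layout. Epha7 reached the mean of 1 TPM only through polyclonal cells, the group where Avpr2 is high, so its high r is no separate evidence. Over the 20 subclone libraries, Aqp1 was closest to Enpep (r = 0.932), which encodes glutamyl aminopeptidase and had 95.9 and 82.6 TPM in subclones 4 and 5 and 55.5 to 67.7 TPM in the others, Chn2 (r = 0.932) and Osr1 (r = 0.912). Osr1 had 3.74 TPM in subclone 4 and 0.292 to 1.08 TPM in the others, so it entered the search largely through subclone 4. Slc14a2 was closest to Gnai1 (r = 0.961), which encodes an inhibitory G protein subunit, Rhov (r = 0.927) and Chn2 (r = 0.925). Gnai1 had group means of 45.4 and 41.2 TPM in subclones 4 and 5 and of 17.3 to 26.8 TPM in the others. The 20 libraries fall into 5 clones, so each r describes 5 levels rather than 20 independent ones. Of the genes around Avpr2, Renbp, 26619 bases away and picked after its values were seen, had 13.2 TPM in polyclonal cells and 0.655 TPM in WT5, whereas Naa10 between them had 83.2 and 63.9 TPM.

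In the list of receptor coupling and the cAMP branch, group means ran from 0.005 TPM (Creb3l1) to 483 TPM (Gnas) in polyclonal cells. In WT5 they ran from 0 (Creb3l3) to 670 TPM (Gnas). Gnas, the gene of the stimulatory G protein subunit, had 483 ± 56.3 TPM in polyclonal cells and 670 ± 13.8 TPM in WT5, Adcy6, a cyclase that acts in water transport, 29.1 ± 2.8 and 43.6 ± 0.855 TPM, and Prkaca, a catalytic subunit of protein kinase A, 130 ± 9.34 and 141 ± 4.76 TPM. Prkacb, of the same list, had 97.1 ± 6.09 TPM in polyclonal cells and 63.8 ± 2.16 TPM in WT5. The z-score differences were 0.099 for Gnas, 0.12 for Adcy6, -0.02 for Prkaca and -0.26 for Prkacb. Of 13 genes of receptor coupling and the cAMP branch, 11 were tested between WT5 and polyclonal cells and 2 were called, Creb5 higher (z-score difference 1.11) and Creb3l4 lower (-1.42), both of them genes of CREB family factors. The median z-score difference of this list was -0.02, against 0.01 over all genes tested, and by sign alone 5 were higher in WT5 and 6 lower. Of 12 names for receptor trafficking and desensitization, 9 were tested and 2 were called, both higher in WT5. They were Arrb1, which encodes beta-arrestin 1 (from 0.103 ± 0.031 to 12.7 ± 1.02 TPM, z-score difference 2.18, limma adjusted p = 9.54e-08), and Ramp2 (1.09). By sign alone, 6 of the 9 were higher in WT5 and 3 lower. The median was 0.13. Of 24 genes of aquaporin 2 vesicle traffic, 23 were tested and 1 was called, Arhgdib, which was lower in WT5 (from 2.96 ± 0.626 to 0.293 ± 0.0411 TPM, z-score difference -1.16). The median was -0.03, and by sign alone 8 were higher in WT5 and 15 lower. In this comparison 5.43% of 13723 genes were called, and nothing is read from the counts about these lists.

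Of 20 regulators of collecting duct water transport genes, 16 were tested between WT5 and polyclonal cells, where 5.43% of 13723 genes were called. Of these regulators 3 were called higher and 1 lower in WT5, from which nothing is read about the list. The median was 0.12, and by sign alone 10 were higher and 6 lower. Gata3, the gene of a zinc finger factor that binds the GATA core, fell from 4.08 ± 1.1 to 0.04 ± 0.00816 TPM (z-score difference -2.24, limma adjusted p = 1.54e-07). Those called higher were Nr1h4, the bile acid receptor gene, Lhx1 and Nr3c2, the mineralocorticoid receptor gene, by 1.45, 1.23 and 1.15. In polyclonal cells their means were 0.04, 0.597 and 0.128 TPM, and in WT5 0.94, 9.29 and 1.47 TPM. Without a pseudocount, such low polyclonal values weigh heavily in the size of a z-score difference. In the subclones, Gata2 was the 1 gene of these pathway lists called against WT5. From 0.948 ± 0.139 TPM in WT5 it fell in subclone 3 to 0.0825 ± 0.0263 TPM, in subclone 4 to 0.0325 ± 0.015 TPM and in subclone 5 to 0.0875 ± 0.0519 TPM (z-score differences -1.24, -1.73 and -1.23, limma adjusted p of 9.88e-06, 1.60e-05 and 4.93e-04). In these clones Slc14a2 had 0.0225 TPM (subclone 3), 4.99 TPM (subclone 4) and 2.4 TPM (subclone 5), and a relation between Gata2 and Slc14a2 was not tested. Among the 5 subclones the F test called 3 of 11 genes of coupling and the cAMP branch and 3 of 9 trafficking genes. It called 2 of 23 vesicle genes and 8 of 17 regulators, where 24.6% of all genes were called. Nothing is read from these counts about the lists. The named genes of the first lists were Adcy3, Creb3l2 and Creb5, then Grk5, Ramp2 and Ramp3, and then Dctn1 and Dync2li1, and the regulators were Ehf, Elf3, Gata2, Lhx1, Nfatc1, Nr1h4, Nr3c2 and Ppargc1a. Of the peptide and other receptor genes, Avp and Oxt had group means of at most 0.035 TPM, and Oxtr, the oxytocin receptor gene, had 0 TPM in polyclonal cells and 0.0900 to 0.427 TPM in WT5 and the subclones and was called among the subclones (limma F test, adjusted p = 2.32e-04).

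**Figure D3:**
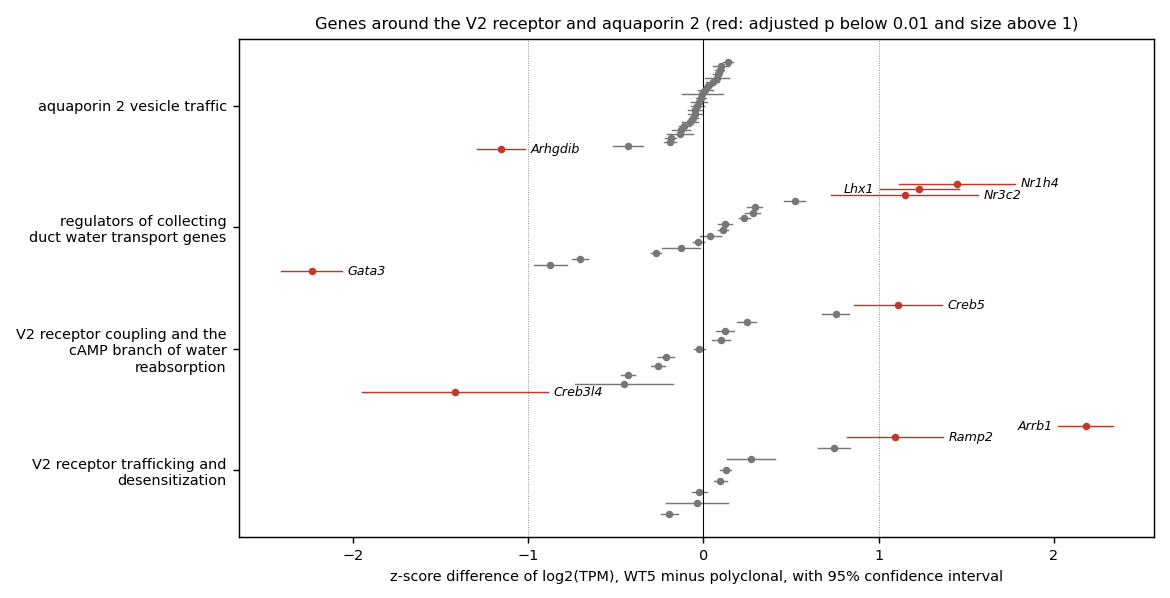
z-score difference of log2(TPM) between WT5 and polyclonal cells with its 95% confidence interval for each tested gene of 4 lists, with called genes in red and named. Most genes lie near 0, Gata3 at -2.24 and Arrb1 at 2.18.

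Markers of other kidney cells moved with the WT5 comparison as well, in which 5.43% of 13723 genes were called. Of 5 loop of Henle markers, Umod and Bst1 were called higher in WT5 (summed level 9.76 to 11.1 TPM in polyclonal cells and 123 to 135 TPM in WT5) while Slc12a1 had at most 0.0025 TPM in any group. Most of this sum was Bst1, with means of 10.4 TPM in polyclonal cells and 126 TPM in WT5. Of 4 podocyte markers, Podxl was called higher (summed level 0.37 to 0.52 TPM and 14.7 to 16.2 TPM), and Nphs1 and Wt1 had group means of at most 0.0075 TPM. Of 7 proximal tubule markers, 3 were tested and Cubn was called higher, at 0.0125 TPM in polyclonal cells, close to the lowest value, and 0.288 TPM in WT5. Without a call, Lrp2 was higher (z-score difference 0.34, limma adjusted p = 9.75e-06) and Aqp1 lower. Slc34a1 was listed at 0 throughout, and the summed level, which includes Aqp1, was 5.15 to 6 TPM and 4.28 to 5.84 TPM. Of the intercalated cell and endothelial lists 1 gene each could be tested and 0 were called, of the 7 fibroblast markers none could be tested, and Foxi1, Emcn and Lum were listed at 0 in all groups. Atp6v1b1, an intercalated cell marker that could not be tested, had 1.33 ± 0.483 TPM in polyclonal cells and 0.0175 ± 0.035 TPM in WT5. The other untested intercalated cell markers had at most 0.155 TPM in the mean of either group. Among the subclones, the summed proximal tubule level was 7.82 to 8.91 TPM in subclone 4 and 6.97 to 11.5 TPM in subclone 5, where Aqp1 was highest, and 5.25 to 11.2 TPM in the others. The summed endothelial level was 1.14 to 1.33 TPM in subclone 4 and at most 0.84 TPM in the other subclones. Most of it was Plvap, with a mean of 1.21 TPM in subclone 4 and 0.47 to 0.74 TPM in the others. The other endothelial markers had means of at most 0.0325 TPM in any subclone. The F test among the subclones also called 2 of 2 loop of Henle, 2 of 2 intercalated cell, 1 of 1 podocyte, 1 of 1 endothelial, 1 of 2 fibroblast and 3 of 6 principal cell markers tested, and of the proximal tubule list Aqp1 alone of 3. Over all genes, 24.6% of 14031 were called. These counts rest on few genes, and nothing is read from them about cell types. Umod had 4.64 and 11.6 TPM in subclones 4 and 5, where Slc14a2 was highest, and 2.12 to 2.73 TPM in the other subclones (limma F test, adjusted p = 5.52e-12). Scnn1g, the gene of a sodium channel subunit, had 8.43 and 16 TPM there and 3.15 to 6.42 TPM in the others (limma F test, adjusted p = 2.92e-11). The other loop of Henle and principal cell markers called by the F test, Bst1, Hsd11b2 and Krt8, went the other way. In subclones 4 and 5 Bst1 had 53.1 and 72.7 TPM, against 87.4 to 121 TPM in the others. Hsd11b2 had 4.26 and 3.95 TPM against 5.05 to 6.26 TPM, and Krt8 495 and 527 TPM against 568 to 620 TPM. The part of these markers in the levels of Avpr2, Aqp1 and Slc14a2 was not tested.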

How the data were processed

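The values are TPM as deposited by the authors, who made them with RSEM 1.3.1 from reads that had passed a quality filter and been mapped by STAR 2.7.3a to GRCm38, using an Ensembl gene annotation. The submitters' processing notes also name CASAVA 1.8. Polyclonal and WT5 libraries are in one table and subclones in another. These were joined by Ensembl identifier, of which 45143 had a symbol, with no normalization between tables.

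The study's methods state z-scores of log2(TPM). The z-scores here were made within each library, with no pseudocount, over genes above 0 in all libraries of the comparison (24 for the subclones against WT5, 20 among the subclones). limma 3.58.1 in R 4.3.3 took the place of the unequal-variance test, now an alternative. The others were a replicate block, pseudocounts of 0.1 and 1, other filters, no z-scores, other thresholds, 1 fit of all 24 libraries and leaving out each library. Members at 0 in any of these libraries were tested by exact permutation, 70 assignments, on TPM. A fit on log2(TPM + 0.1) without z-scores, of genes above 0 in any library, was added after seeing the data, because Slc14a2 was in no z-score fit without a pseudocount, as was the count of all genes at an unadjusted p below 0.05. All 10 members are named, pathway genes are named where called, and the 3 genes most like Avpr2, Aqp1 and Slc14a2 by correlation. Gnas, Adcy6, Prkaca and Prkacb were named after their values were seen. The scripts were tested on simulated data. Members and lists were chosen with earlier results of these data known.

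No depth can be taken from TPM, so no counting error is given. Coordinates are from GENCODE M21 on GRCm38, and promoter sequences from RefSeq. Replicate numbers were not taken as pairs. The kinase symbols Adrbk1 and Adrbk2 of the trafficking list are older and name the same genes as Grk2 and Grk3. Python 3.11.15 with pandas 2.3.3, numpy 2.4.6 and matplotlib 3.10.9 was used.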

Additional observations from a re-analysis of the deposited data

Results flagged for a closer look

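A library was noted when its gap to the nearest of the other 3, divided by the range of the group, passed Dixon's 95% critical value, which chance passes in about 1 in 20 groups. This occurred in 15 of 58 groups of members. At measurable levels these were Avpr2 in polyclonal replicate 4 (9.7 TPM, low), Aqp3 in polyclonal replicate 3 (0.84 TPM, high) and Slc14a2 in WT5 replicate 4 (0.13 TPM, low). The others lie within a few steps of the last decimal: Avpr2 in subclone 5 replicate 3 (0.01 TPM), Slc14a2 in subclone 2 replicate 1 (0.01 TPM), Aqp4 in WT5 replicate 4, subclone 3 replicate 2 and subclone 4 replicate 2 (0.01 TPM each) and in replicate 2 of subclones 1 and 5 and replicate 1 of subclone 2 (0.02 TPM each), and Slc14a1 in polyclonal replicate 2 (0.06 TPM), subclone 2 replicate 4 (0 TPM), subclone 3 replicate 3 (0.03 TPM) and subclone 5 replicate 1 (0.01 TPM).

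Slc14a2 moved in opposite directions among clones of the same origin: all libraries of subclones 4 (mean 4.99 TPM) and 5 (2.4 TPM) were above, and all libraries of subclones 2 (0.0025 TPM) and 3 (0.0225 TPM) below, every WT5 library. The contrasts share the WT5 libraries, and their difference was tested between the subclones themselves, where each of the 4 pairs across these directions passed (limma adjusted p at most 1.31e-15).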

How the results depend on the processing

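Between WT5 and polyclonal cells, Avpr2 was called under every alternative run, and the number of members called rose from 1 to 2, with Aqp1, with no threshold on the difference, with a mean TPM of at least 1 and with log2 differences above 1. The genes called went from 317 higher and 428 lower to 2327 higher and 1174 lower without z-scores, and in the subclones from 1 to 10 higher and 16 to 23 lower to 154 to 398 higher and 219 to 315 lower. With no threshold on the difference 1 member was called in subclone 3 (Aqp11) and 1 in subclone 4 (Aqp1), the latter also with log2 differences above 1, and 8986 genes were called in WT5 and 2708 to 5173 in the subclones. The F test called 2 members in place of 1 with genes above 0 in any library, as Slc14a2 entered. Over all genes, the unequal-variance test called 10 to 13 genes in subclones 1, 2, 3 and 5, a pseudocount of 1 called 6 to 9 in each subclone and of 0.1 called 12 to 15 in subclones 1, 2 and 4, a mean TPM of at least 1 gave 37 in subclone 3 and 48 in subclone 4, genes above 0 in any library gave 14 and 13 there, and an adjusted p below 0.05 gave 5243 for the F test.

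Leaving out 1 library each, z-scored member counts stayed at 1 in WT5, 0 in every subclone and 1 for the F test. With genes above 0 in any library they were 3 to 4 in WT5 (4 without polyclonal replicate 3, when Aqp3 was higher by 2.86, adjusted p = 0.00134), 0 in subclone 1, 0 to 1 in subclones 2 and 3, 1 to 2 in subclone 4, 1 in subclone 5 and 2 to 3 for the F test (3 without subclone 1 replicate 4, with Avpr1a, adjusted p = 0.0046 against 0.0151). Among members in the z-score fits without a pseudocount, directions turned for Aqp1 in subclone 1 (0.00688 and 0.0301 with genes above 0 in any library and without z-scores, 0.0234 with both, and -0.0883 to 0.0476 leaving out libraries), Aqp3 in subclone 1 (0.00293 and 0.0253 at pseudocounts of 0.1 and 1, 0.0164, 0.00581 and 0.0608, and -0.188 to 0.225) and Aqp3 in subclone 3 (-0.0234 to 0.2). With genes above 0 in any library, z-scores and log2 differences had opposite signs in 5 of 54 values, of which 0 were called: Slc14a1 in WT5 (0.0924 and -0.17) and subclone 5 (-0.00182 and 0.0344), Avpr1a in subclone 3 (-0.0101 and 0.0198), Aqp4 in subclone 5 (-0.00251 and 0.0314) and Aqp5 in subclone 4 (-0.00808 and 0.0516). The replicate number as a block left the members called at 1 in WT5, 0 in each subclone and 1 for the F test. Same-numbered libraries correlated between -0.0457 and 0.0637 after removal of group means, so the numbers were not taken to pair them. The depth is unknown, and differences between members under about 0.1 TPM rest on a few steps of the last decimal.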
